A study of Mus musculus with 2 samples.

Results

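The immediate early genes examined here were 10 genes out of the 19070 in the feature list: Fos, Fosb, Junb, Egr1, Egr2, Egr4, Arc, Npas4, Nr4a1 and Ier2. They were chosen by symbol, and all 10 were present in both libraries. Spatial expression was measured with Visium HD, a probe-based assay on an array of barcoded squares, in 2 coronal sections of fixed, paraffin-embedded brain from male C57Bl6 mice (C57BL/6J in the study's methods) aged 3 months. Both mice had received a controlled cortical impact (CCI) over the right parietal lobe, a model of brain trauma that uses a driven piston on exposed cortex. One section came from a brain collected 3 days after the impact and 1 from a brain collected 28 days after it, the mice received anaesthesia, analgesia and a craniotomy for the impact and, per the labels, no treatment, and no sham-operated section was analysed here.

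Immediate early genes need no new protein for their transcription: calcium entry and kinase signalling act on transcription factors that the cell already holds, among them CREB and serum response factor. In cortex and hippocampus the transcripts serve as markers of recent neuronal activity, and several of them are also induced in glia and vascular cells by growth factors, cytokines and wounding. Fos, Fosb and Junb encode subunits of the dimeric factor AP-1, and Egr1, Egr2 and Egr4 encode zinc finger factors. Npas4 encodes a factor largely restricted to neurons and driven by depolarisation, Nr4a1 an orphan nuclear receptor, Ier2 a small nuclear protein, and Arc a synaptic protein that acts on the trafficking of glutamate receptors.

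The promoters of the 3 members with the highest cortical ratios at 3 days are shown because these genes were raised in the same tissue. Each line gives the 200 bases before the transcription start from RefSeq (GRCm38.p6), 5′ to 3′ on the strand of the gene, with capitals marking TGACG, the half-site of the element that CREB binds, or its reverse complement CGTCA.
Fos (chr12:85473690-85473889, plus strand): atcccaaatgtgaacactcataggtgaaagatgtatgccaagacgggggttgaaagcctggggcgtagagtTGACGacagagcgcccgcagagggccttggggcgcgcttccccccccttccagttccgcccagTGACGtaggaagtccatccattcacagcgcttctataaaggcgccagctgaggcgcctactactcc
Fosb (chr7:19310046-19310245, minus strand): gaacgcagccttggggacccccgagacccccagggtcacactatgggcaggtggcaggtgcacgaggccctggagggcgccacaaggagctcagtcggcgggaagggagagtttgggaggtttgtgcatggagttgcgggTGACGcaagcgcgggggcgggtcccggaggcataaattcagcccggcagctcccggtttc
Npas4 (chr19:4989972-4990171, minus strand): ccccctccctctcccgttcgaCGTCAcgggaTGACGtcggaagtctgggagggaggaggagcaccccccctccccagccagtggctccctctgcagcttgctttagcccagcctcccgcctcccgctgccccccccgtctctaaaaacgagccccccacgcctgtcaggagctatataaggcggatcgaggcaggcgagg
The 2 half-sites of Fos began 129 and 66 bases before the start, that of Fosb 60 bases before it, and those of Npas4 179 and 169 bases before it. Promoter sequence was at hand for 7 of the 10 members (Fos, Fosb, Junb, Egr2, Egr4, Npas4 and Nr4a1). All 7 held at least 1 half-site on either strand in the 250 bases before a start, as did 17.8% of the 32851 promoters searched. The full palindrome TGACGTCA, which spans both half-sites, was in 0 of the 7 and in 1.55% of promoters. Of the 7, Egr2 was the 1 with a CArG box, the element of serum response factor, in these 250 bases, as were 1.47% of promoters. Sequence farther from the start, and that of Egr1, Arc and Ier2, was not searched. These matches describe letters in a window and were not set against any measurement.

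Values were UMIs (unique molecular identifiers, each standing for 1 captured probe molecule) per 16 µm bin, summed over an area and scaled to counts per 1000000 UMIs of that area (CPM). The section at 3 days held 121967 bins with a median of 836 UMIs, and that at 28 days 105589 bins with a median of 596 UMIs. With 1 section per time there were no replicates, so no test between conditions was possible, and the 95% intervals in square brackets cover counting error only. A straight line separated the sides and left 2.08 mm of the injured side on the array at 3 days and 3.84 mm at 28 days. At 3 days the fissure between the hemispheres lay a little to the injured side of this line. Some bins next to the line that were counted as injured may therefore lie beyond the fissure, and alternatives moved the line by 12 bins. The lesion zone (8522 bins at 3 days, 13559 at 28 days) was placed by 6 myeloid genes, Cd68, Lyz2, Ctsz, Lgals3, Cd52 and Laptm5, so its myeloid content follows from that choice. It was compared with the mirror zone, its reflection on the opposite side. Ratios are log2 values of injured over reference area and were computed where a gene had 20 or more UMIs in the 2 areas together. A gene was called higher or lower where its ratio was at least 1 or at most -1. Fewer cells of a type and less RNA per cell cannot be told apart in summed bins.

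All members were sparse at this bin size. Egr1 was detected in 18.1% of bins at 3 days and 12.4% at 28 days, Arc in 9.06% and 4.54%, and Fosb in 0.547% and 0.312%. Over the whole section, Fos had 50.4 CPM at 3 days and 39.5 CPM at 28 days. Npas4 had 35.5 and 25.9 CPM in the same order, and Arc had 116 and 66.2 CPM. Levels are set side by side between areas and not between genes, since each gene has its own probes.

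On the opposite side the members followed regional patterns. Egr1 had 479 CPM in cortex at 3 days and 441 CPM at 28 days, 430 and 308 CPM in striatum, 194 and 138 CPM in a hippocampal patch of mostly dentate gyrus and CA3, 153 and 156 CPM in hypothalamus, and 83.6 and 86.1 CPM in thalamus. For Egr1, cortex was highest and striatum next in both sections, and thalamus the lowest of these 5 regions, whereas the hippocampal patch was above hypothalamus at 3 days and had an interval overlapping with it at 28 days. Arc had 222 and 166 CPM in cortex against 11.5 and 12.8 CPM in thalamus. The order of cortex and striatum was not the same for all members. At 3 days Npas4 (54.5 against 34.5 CPM), Junb (103 against 72.4 CPM), Fosb (9.98 against 4.35 CPM), Egr2 (13.2 against 7.72 CPM) and Egr4 (57.7 against 39.3 CPM) were higher in striatum than in cortex, with intervals that did not overlap. At 28 days Npas4 was lower in striatum (25.9 against 38.2 CPM), and the intervals of Junb, Fosb, Egr2 and Egr4 in the 2 regions overlapped. Egr4 was near its floor in thalamus, with 0.552 and 0.974 CPM. Ier2 was close between thalamus and cortex and lower in striatum, with 20.4 CPM in thalamus and 23.0 CPM in cortex at 3 days and 23.5 and 27.1 CPM at 28 days, where the intervals overlapped, and with 9.26 and 4.50 CPM in striatum. Cortex and thalamus were labelled from marker lists, and each marker of its list (7 for cortex, among them Tbr1 and Fezf2, and 8 for thalamus, among them Prkcd and Tcf7l2) was higher in its region than in the rest of the section.

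**Figure D1:**
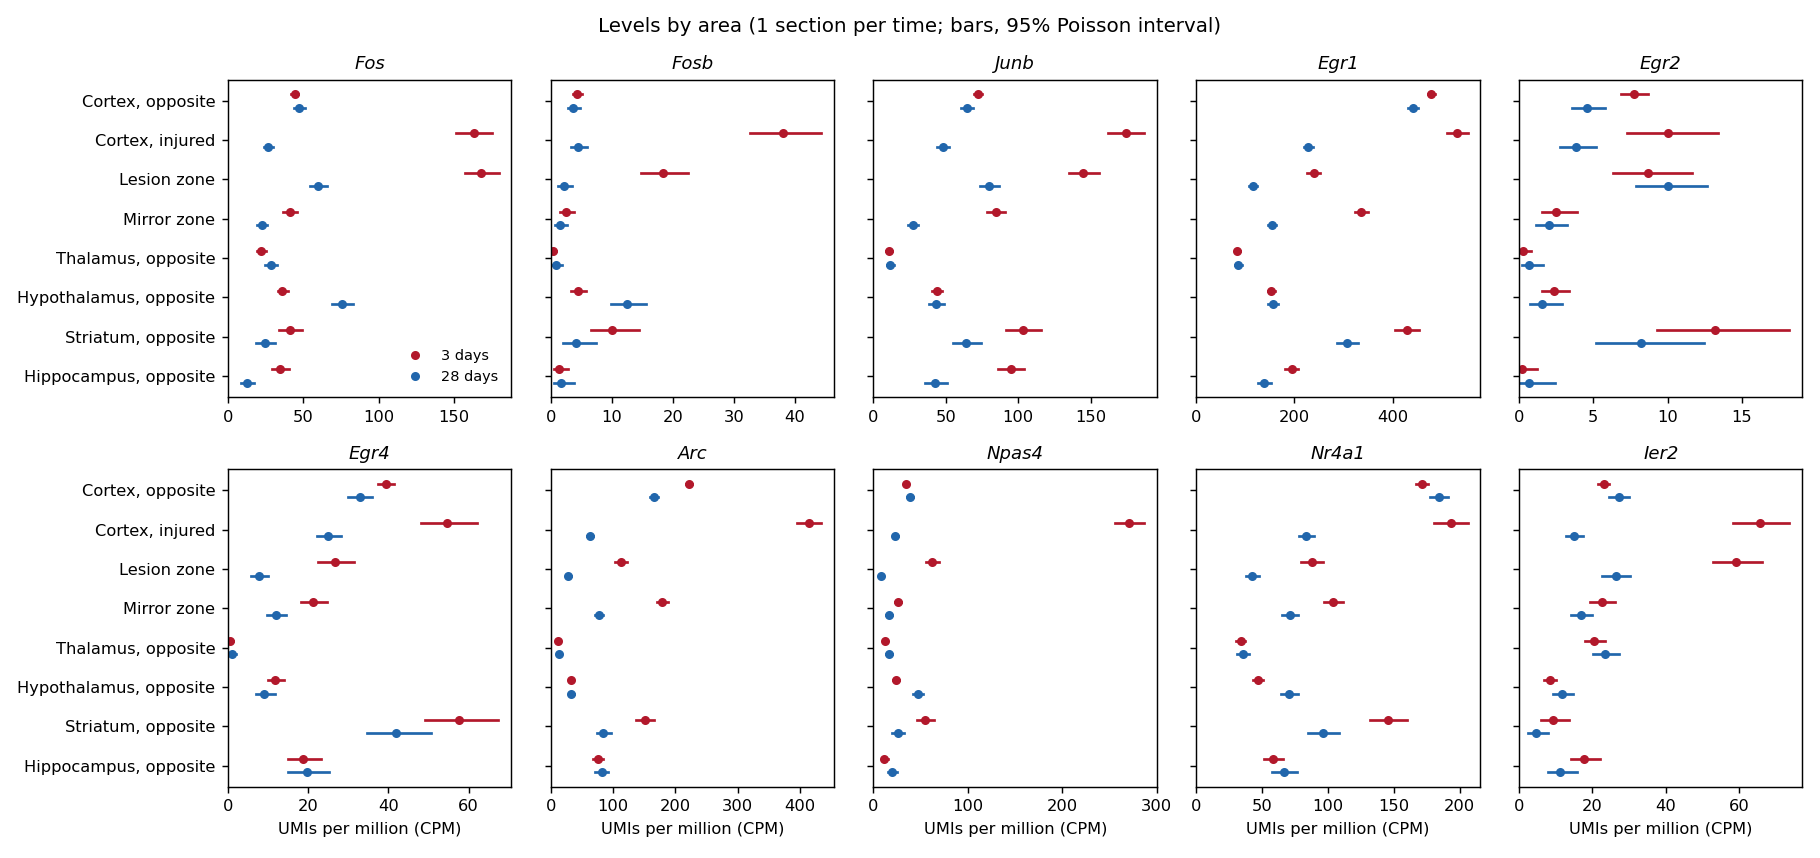
Level (CPM, horizontal axis) of each member in 8 areas, 1 panel per gene, at 3 days (red) and 28 days (blue). Points are sums over the area in 1 section and bars are 95% Poisson intervals. The injured cortex at 3 days lies to the right of all other areas for Npas4 (271 CPM) and Fosb (38.0 CPM).

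The lesion zone at 3 days split the family, with Fos, Fosb, Egr2, Ier2 and Npas4 called higher than in the mirror zone and Arc, Egr1 and Nr4a1 at ratios below 0. Of the AP-1 genes, Fos had 168 CPM (869 UMIs) in the zone and 41.1 CPM (327 UMIs) in the mirror zone, a log2 ratio of 2.03 [1.85 to 2.22]. Fosb had 18.4 CPM (95 UMIs) and 2.51 CPM (20 UMIs), a log2 ratio of 2.84 [2.16 to 3.65]. Junb had 145 CPM (750 UMIs) and 84.5 CPM (673 UMIs), a log2 ratio of 0.78 [0.63 to 0.93], which was above 0 and short of the call. Among the zinc finger genes, Egr2 rose with a log2 ratio of 1.77 from 2.51 CPM (20 UMIs) to 8.70 CPM (45 UMIs), Egr4 had a ratio of 0.33 whose interval included 0, and Egr1 a ratio of -0.49 [-0.59 to -0.39]. Egr1 and Arc were the members with the lowest ratios. Arc had 112 CPM (580 UMIs) in the zone and 179 CPM (1427 UMIs) in the mirror zone, a log2 ratio of -0.68 [-0.82 to -0.54]. Ier2 had a ratio of 1.39 [1.12 to 1.66], Npas4 of 1.27 [1.01 to 1.53] and Nr4a1 of -0.25 [-0.42 to -0.08]. In all, 5 of 10 members were called higher, against 17.5% of the 13570 genes measured, and 0 were called lower, against 8.57%. The median over the members was 1.02, and over all genes 0.14. Relative to pan-neuronal UMIs all 10 were past the threshold for higher. That scaling raises every gene by the same amount, and the share of all genes past the threshold under it was not counted. It leaves the order of genes unchanged, and Arc, the lowest member, stood at percentile 14.6 of all genes measured. Every gene above that percentile was therefore past the threshold too. The mean depth was 607 UMIs per bin in the zone and 937 in the mirror zone. As UMIs per bin rather than CPM, Npas4 (0.64) and Ier2 (0.76) were short of the call, while Arc (-1.30) and Egr1 (-1.12) were called lower, and against the whole opposite side Egr2 had 0.79, short of the call, and Junb 1.33, past it.

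These ratios stood beside a loss of neuronal transcripts. The 9 pan-neuronal genes (Snap25, Syt1, Rbfox3 and others) summed to 2842 CPM in the zone and 9185 CPM in the mirror zone, with a median log2 ratio of -1.28 and all 9 below 0. The 6 astrocyte genes summed to 5673 and 2904 CPM, and the 8 microglia and macrophage genes to 1924 and 542 CPM. The 5 white matter genes summed to 2591 and 906 CPM and the 5 endothelial genes to 432 and 159 CPM, with no gene of these lists at 0. Relative to pan-neuronal UMIs the direction of Arc, Egr1 and Nr4a1 turned, to log2 ratios of 1.02, 1.20 and 1.45. The part of cell composition in the ratios of the zone was not tested.

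The members differed in which bins of the zone they occupied. At 3 days the 267 zone bins with an Npas4 UMI had 6378 CPM of the pan-neuronal list and the zone bins without one 2636 CPM. Arc (6337 against 2514 CPM), Egr4 (5925 against 2755 CPM) and Fosb (5512 against 2796 CPM) were likewise found in bins richer in neuronal transcripts. The 741 bins with Fos stood closer to the rest of the zone, at 3147 against 2801 CPM for the neuronal list and 5610 against 5682 CPM for the astrocyte list. Bins with a UMI also tend to be deeper, and a 16 µm bin can hold parts of several cells, so these are descriptions of bins and not of cells.

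The clearest pattern was in cortex outside the lesion zone at 3 days, where Npas4, Fosb, Fos, Junb and Ier2 were high on the injured side while Egr1 and Nr4a1 were level. Npas4 had 271 CPM (1216 UMIs) in the 3503 injured cortex bins and 43.5 CPM (286 UMIs) in the 5759 opposite ones, a 6.21-fold difference and a log2 ratio of 2.64 [2.45 to 2.83]. Fosb had 38.0 CPM (171 UMIs) and 4.71 CPM (31 UMIs), a log2 ratio of 2.99 [2.45 to 3.61]. Fos had 163 CPM (733 UMIs) and 51.7 CPM (340 UMIs), a log2 ratio of 1.66 [1.47 to 1.85]. The injured side was thus several times higher for the neuronal factor Npas4 and for these AP-1 genes. Junb had a log2 ratio of 1.18 [1.02 to 1.35], Ier2 of 1.12 [0.85 to 1.38], Egr4 of 0.62 [0.35 to 0.88] and Arc of 0.53 [0.43 to 0.62], all with intervals above 0. Egr1 had 532 CPM (2390 UMIs) on the injured side and 530 CPM (3485 UMIs) on the opposite side, a log2 ratio of 0.01 [-0.07 to 0.08]. Nr4a1 had a ratio of -0.05 [-0.18 to 0.07] and Egr2 of 0.37 [-0.24 to 0.98], both with intervals that included 0. Hence 5 of 10 members were called higher, against 7.56% of 12712 genes, and 0 lower, against 0.818%. The calls of Npas4, Fosb, Fos and Ier2 held under all alternatives that gave a value, and Junb had 0.90 with the line moved 12 bins towards the opposite side.

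The neuronal list was close to level between these cortical areas, at 9849 CPM on the injured and 10594 CPM on the opposite side, with a median log2 ratio of -0.09. The microglia and macrophage list was at 852 against 257 CPM and the astrocyte list at 4168 against 2372 CPM, and their part in the members' ratios was not tested. Within the injured cortex, the 851 bins with Npas4 had 11010 CPM of the neuronal list against 9294 CPM in the bins without it, and 2833 against 4806 CPM of the astrocyte list. In the 2703 cortex bins of each side whose mirrored bin was also cortex, the ratios were 2.70 [2.42 to 3.00] for Npas4, 2.97 [2.21 to 3.92] for Fosb, 1.93 [1.66 to 2.22] for Fos and 0.03 [-0.07 to 0.12] for Egr1, and Egr2 reached 1.06 [0.22 to 2.02], past the threshold for a call.

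Squares of tissue varied widely within each side. In the 10 squares of 32 by 32 bins that held injured cortex at 3 days, Npas4 had a lowest value of 0, a median of 215 and a highest of 365 CPM. In the 46 squares of the whole opposite cortex the values were 0, 32.2 and 73.2 CPM, and in the 10 squares of its mirrored columns, the reference of the ratios above, 17.2, 34.7 and 88.0 CPM. The median on the injured side was above the highest square of either, although the ranges overlapped at their low end. For Egr1 the injured squares ran from 89.7 to 656 CPM with a median of 536 CPM, those of the mirrored columns from 371 to 706 CPM with a median of 517 CPM, and those of the whole opposite cortex from 167 to 752 CPM with a median of 424 CPM.

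**Figure D2:**
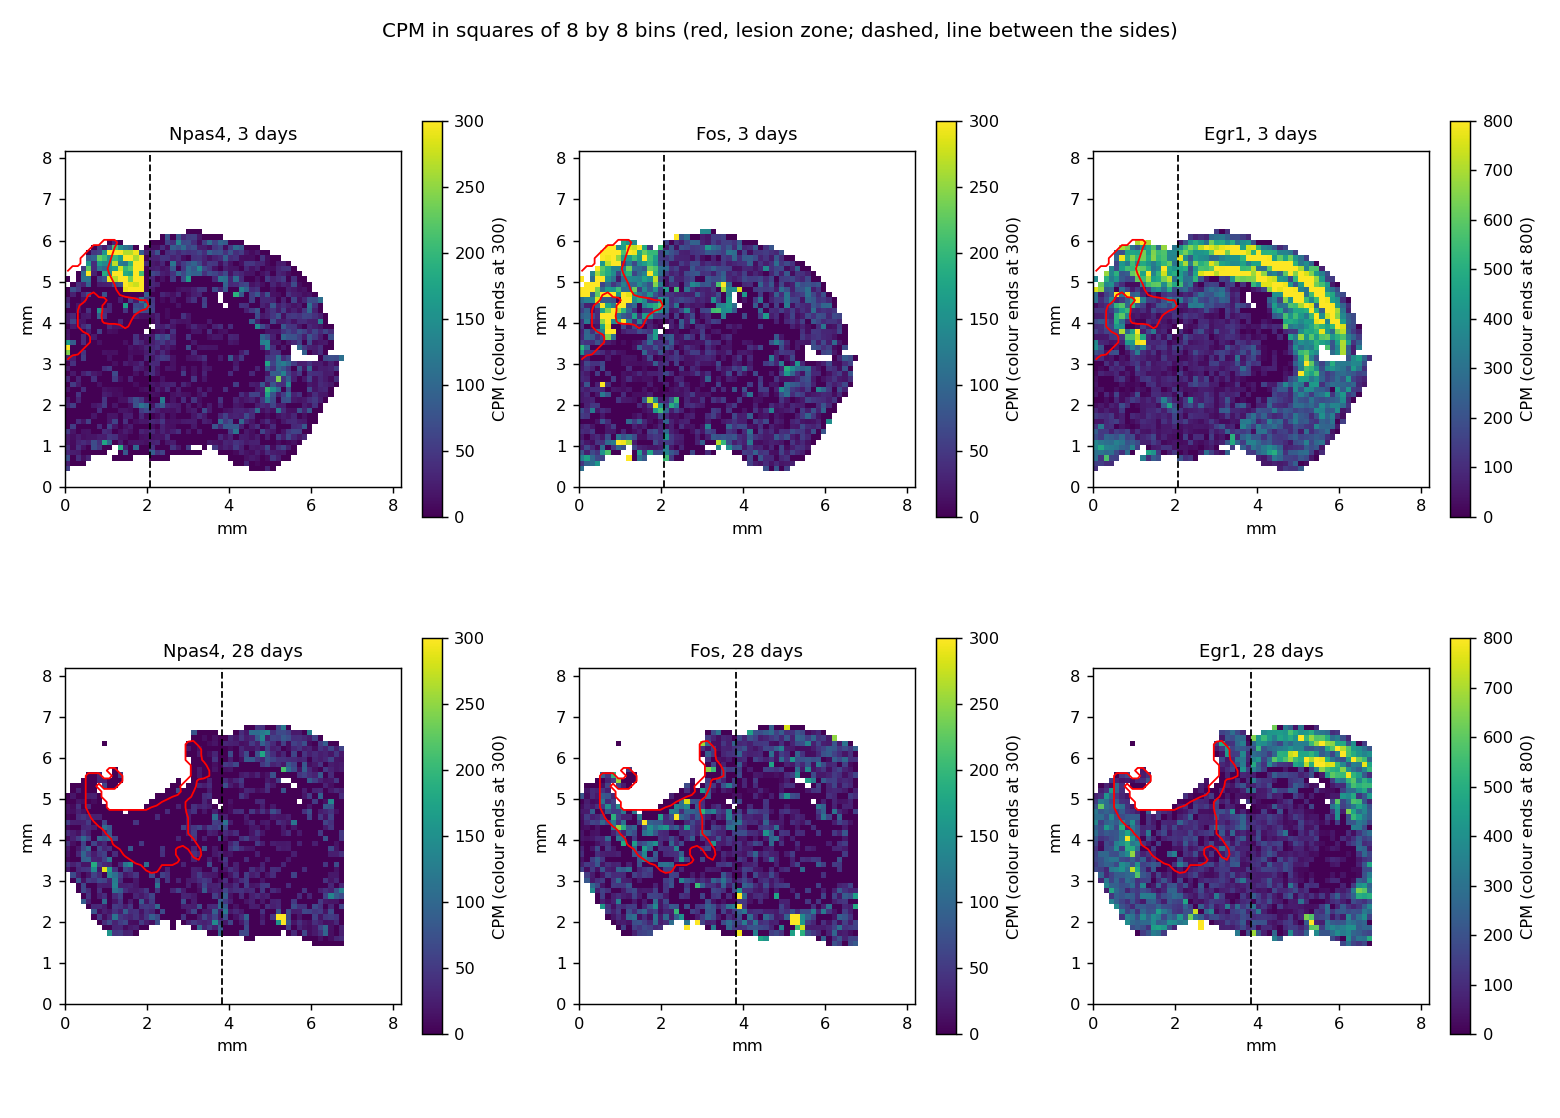
Maps of Npas4, Fos and Egr1 (columns) at 3 days (top) and 28 days (bottom), as CPM in squares of 8 by 8 bins, with both axes in mm. The red outline is the lesion zone and the dashed line separates the injured side (left) from the opposite side. At 3 days Npas4 is high in the injured cortex between the zone and the line, and Fos is high there and within the zone. Egr1 is high along the opposite cortex and about level with it in the injured cortex (530 and 532 CPM in the compared areas). The section at 28 days has a stretch without tissue above the zone.

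Within the strip of injured cortex that could be measured at 3 days, the members differed in how their levels ran with distance from the zone. Npas4 on the injured side had 267 CPM within 250 µm of the zone, 277 CPM at 250 to 500 µm and 272 CPM at 500 to 1000 µm. At the mirrored distances it had 50.5, 44.6 and 27.9 CPM, so that the log2 ratio was 2.40 [2.13 to 2.68] nearest to the zone and 3.27 [2.81 to 3.79] farthest from it. Fos had 153, 171 and 168 CPM over the same bands, and its ratios of 1.47 [1.18 to 1.77] in the nearest and 1.79 [1.40 to 2.21] in the farthest had overlapping intervals. Junb was highest nearest to the zone, with 205, 157 and 160 CPM, as was Ier2, with 76.7, 54.8 and 66.9 CPM. Their ratios, 1.27 and 1.36 for Junb and 1.34 [0.94 to 1.75] and 1.09 [0.55 to 1.65] for Ier2 in the nearest and farthest bands, had overlapping intervals, as had those of Fosb, 3.28 [2.39 to 4.41] and 2.71 [1.61 to 4.20]. Egr1 had 540, 518 and 549 CPM on the injured side and 583, 506 and 459 CPM at the mirrored distances. Its ratio passed from -0.11 [-0.23 to 0.01] in the nearest band to 0.26 [0.10 to 0.42] in the farthest. Nr4a1 had 192, 175 and 222 CPM on the injured side and 217, 203 and 164 CPM at the mirrored distances. Its ratio passed from -0.17 [-0.38 to 0.02] to 0.43 [0.18 to 0.69]. Injured cortex beyond 1000 µm was not compared at 3 days. Over all tissue, which mixes regions, Npas4 on the injured side had 86.1, 108, 63.0 and 17.1 CPM in the bands out to 2000 µm. Fos had 119, 92.5, 56.7 and 32.3 CPM. In the band at 1000 to 2000 µm the ratios were -0.29 [-0.60 to 0.02] for Npas4 and 0.13 [-0.11 to 0.37] for Fos.

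**Figure D3:**
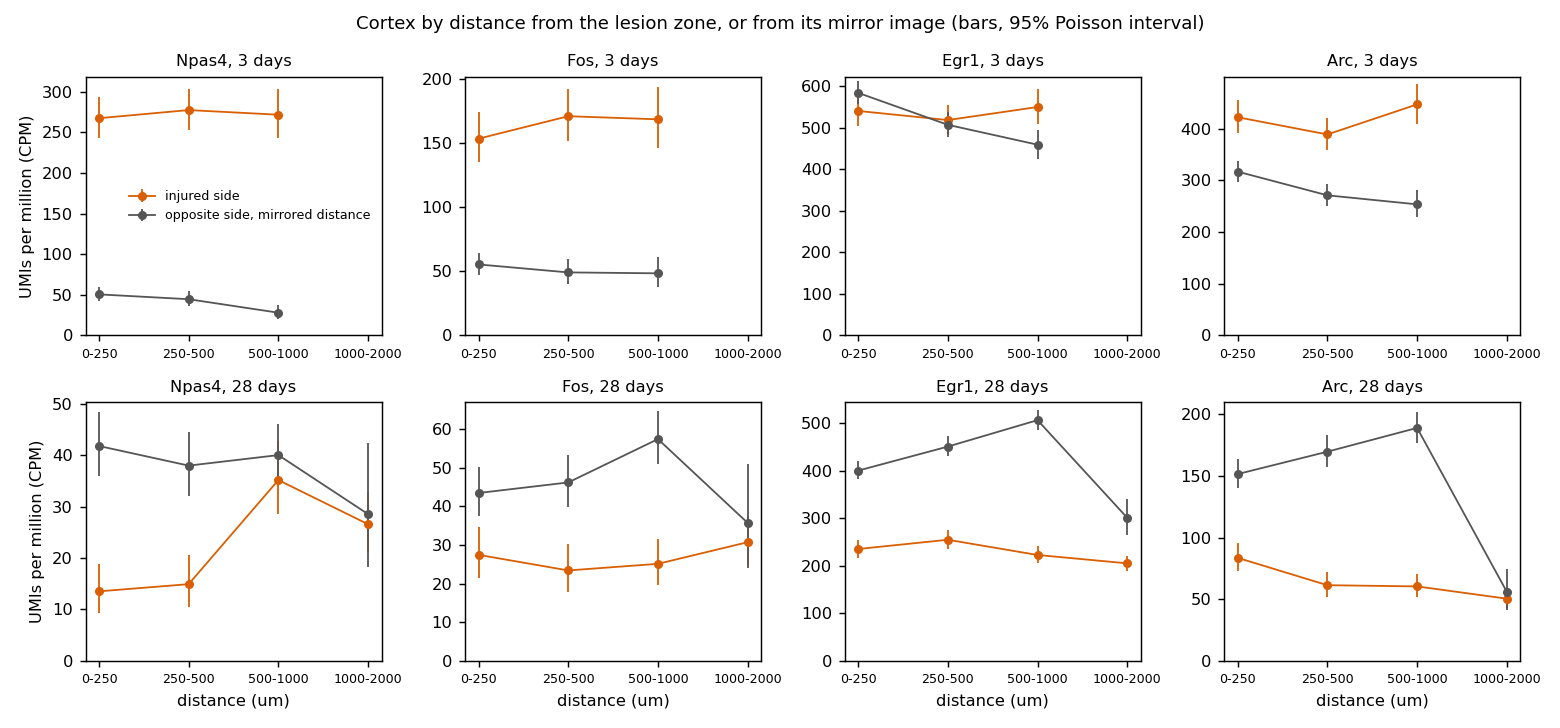
CPM of Npas4, Fos, Egr1 and Arc in cortex by distance in µm from the lesion zone (orange, injured side) or from the mirror zone (grey, opposite side), at 3 days (top) and 28 days (bottom). Points are sums over 1 section and bars are 95% Poisson intervals. Npas4 at 3 days stays near 272 CPM on the injured side and under 50.5 CPM beyond the first band of the opposite side.

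The rise in Npas4 was present across cortical layers. Against the whole opposite cortex at 3 days, Npas4 had 291 against 32.5 CPM in upper layers, 251 against 30.3 CPM in layer 5 and 292 against 44.4 CPM in layer 6. The log2 ratios were 3.16 [2.98 to 3.34], 3.05 [2.84 to 3.26] and 2.72 [2.46 to 2.98]. Fos followed with 2.18 [1.98 to 2.37], 2.00 [1.79 to 2.22] and 1.52 [1.16 to 1.86]. Arc had 1.63 [1.51 to 1.75] in upper layers and 0.55 [0.39 to 0.71] in layer 6, and Egr1 0.56 [0.46 to 0.66] and -0.08 [-0.22 to 0.06]. Egr1 itself differed between the layers of the opposite cortex, with 1000 CPM in layer 4 and 367 CPM in upper layers. Layer 4 was labelled in only 72 injured bins and is not compared.

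In the lesion zone at 28 days, Egr2, Junb and Fos were called higher and Arc and Npas4 lower, and of the raised members Egr2 and Fos had also been called higher at 3 days. Egr2 had 10.1 CPM (72 UMIs) in the zone and 2.00 CPM (16 UMIs) in its reflection, and its log2 ratio was 2.29 [1.53 to 3.21]. Junb had 79.9 CPM (572 UMIs) and 27.0 CPM (216 UMIs), a ratio of 1.56 [1.34 to 1.80], and Fos 59.7 CPM (427 UMIs) and 22.3 CPM (178 UMIs), a ratio of 1.42 [1.17 to 1.68]. Npas4 had 7.54 CPM (54 UMIs) in the zone and 16.3 CPM (130 UMIs) in its reflection, and the ratio was -1.10 [-1.59 to -0.64], on the other side of 0 from its value at 3 days. Arc fell with a ratio of -1.47 [-1.71 to -1.24]. Nr4a1 had a ratio of -0.74 [-0.95 to -0.54], Egr4 of -0.62 [-1.14 to -0.14], Egr1 of -0.41 [-0.54 to -0.28], Ier2 of 0.65 [0.32 to 0.98] and Fosb, with 15 and 12 UMIs, of 0.47 [-0.71 to 1.71]. Thus 3 of 10 members were called higher, against 16.5% of 13619 genes, and 2 lower, against 8.16%, with a median of 0.03 over the members. Against the whole opposite side 1 member was called higher and 5 lower, with a median of -1.03, and relative to pan-neuronal UMIs 5 were called higher and 0 lower, with a median of 1.38. The shares of all genes called under these settings were not counted. The neuronal scaling raises every gene by the same amount, and as CPM the median was 0.03 over the members and 0.00014 over all genes. It leaves the order of genes unchanged. Egr1, short of the call under it, stood at percentile 25.2 of all genes measured, so most genes had higher ratios than Egr1. Fos had 0.43 and Junb 0.93 with a wider zone set at the 95th percentile, and 0.60 and 0.84 against the whole opposite side, so that of the raised members the call of Egr2 alone held under every alternative run.

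Beside these ratios, the neuronal list was at 3492 CPM in the zone and 8885 CPM in the mirror zone, the astrocyte list at 9749 and 2347 CPM, and the microglia and macrophage list at 5170 and 291 CPM. The white matter list was at 1459 and 1450 CPM and the endothelial list at 316 and 223 CPM. Relative to pan-neuronal UMIs, Npas4, Egr1, Egr4 and Nr4a1 turned to ratios above 0 and Arc was at -0.13, and the part of cell composition was not tested. The bins that held the raised members were poorer in neuronal transcripts than the rest of the zone. The 69 zone bins with Egr2 had 7110 CPM of the microglia and macrophage list, against 5155 CPM in the other zone bins, and 2376 against 3501 CPM of the neuronal list. Junb bins had 2178 against 3595 CPM of the neuronal list, and Fos bins 2665 against 3533 CPM. For the microglia and macrophage list, Junb bins stood higher than the other zone bins (5682 against 5130 CPM) and Fos bins lower (4491 against 5204 CPM). Egr1, Arc and Nr4a1 bins ran the other way, with 5041, 5039 and 4991 CPM of the neuronal list against 3329, 3458 and 3438 CPM in the zone bins without them.

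In cortex outside the zone at 28 days, most members had ratios below 0, and 3 of 10 were called lower. The amounts depended on which cortex was compared. The comparison took the injured columns that have a mirror column on the array, which held 2298 of the 9428 injured bins labelled cortex at 28 days and all 3503 at 3 days. Npas4 had 11.7 CPM (30 UMIs) in the 2298 injured bins and 39.4 CPM (549 UMIs) in the 10487 opposite ones, a log2 ratio of -1.73 [-2.33 to -1.22]. Arc had 76.9 CPM (197 UMIs) and 164 CPM (2286 UMIs), a ratio of -1.09 [-1.31 to -0.88]. Egr1 had 211 CPM (540 UMIs) and 446 CPM (6217 UMIs), a ratio of -1.08 [-1.21 to -0.95]. Fos (-0.97 [-1.38 to -0.61]), Egr4 (-0.82 [-1.29 to -0.41]), Nr4a1 (-0.80 [-0.98 to -0.62]), Ier2 (-0.45 [-0.91 to -0.04]) and Junb (-0.35 [-0.62 to -0.09]) also had intervals below 0, while those of Egr2 (-0.36 [-1.62 to 0.58]) and Fosb (0.35 [-0.74 to 1.22]) included 0. Over all 9428 injured and 11710 opposite bins labelled cortex, an alternative chosen after seeing the data, Npas4 was at -0.71 [-0.93 to -0.50] and Egr1 at -0.95 [-1.02 to -0.89], both short of the call, Arc at -1.40 [-1.52 to -1.28], and Nr4a1 at -1.14 [-1.25 to -1.04], called lower. With the mirrored columns, the counts were 3 of 10 members called lower, against 1.37% of 12866 genes, and 0 higher, against 4.13%. The neuronal list was at 10640 and 12169 CPM, with a median log2 ratio of -0.12, the microglia and macrophage list at 485 and 203 CPM, and the astrocyte list at 3371 and 2467 CPM, and their part in the ratios was not tested.

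These cortical areas were not alike in position. Of the opposite cortex bins used as reference, 80.7% faced a place without tissue on the injured side at 28 days, and 45.9% at 3 days. In the 1535 bins of each side at 28 days whose mirrored bin was also cortex, Npas4 had a ratio of -1.69 [-2.70 to -0.85], Fos of -0.80 [-1.37 to -0.26], Arc of -0.67 [-0.97 to -0.38], Egr1 of -0.64 [-0.82 to -0.46], Junb of -0.57 [-1.01 to -0.16] and Nr4a1 of -0.53 [-0.79 to -0.28]. Arc and Egr1 were then short of the threshold for a call, as was Arc under 4 other alternatives and Egr1 under 5, and the intervals of Egr4 (-0.65 [-1.36 to 0.02]) and Ier2 (-0.37 [-0.97 to 0.22]) included 0. By layer, over all injured cortex with a layer label and against all opposite cortex, Arc had ratios of -1.22 in upper layers, -1.27 [-1.53 to -1.01] in layer 4, -1.41 [-1.68 to -1.15] in layer 5 and -1.57 [-1.83 to -1.33] in layer 6. Npas4 had -0.98 [-1.35 to -0.63], -1.15 [-1.79 to -0.57], -0.92 [-1.46 to -0.44] and 0.04 [-0.37 to 0.43] in the same order, with layer 6 near 0. Squares of 32 by 32 bins at 28 days were taken over all bins labelled cortex outside the zone, not the mirrored columns alone. Npas4 had a lowest value of 0, a median of 24.0 and a highest of 91.9 CPM over 20 injured squares. Over 25 opposite squares it had 0, 30.5 and 70.4 CPM, so the ranges overlapped and the highest square was on the injured side. The Npas4 call was lost also with the line moved 12 bins towards the injured side, at -0.96.

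By distance, over all bins labelled cortex rather than the mirrored columns alone, Npas4 in injured cortex at 28 days had 13.5 CPM within 250 µm of the zone, 14.9 CPM at 250 to 500 µm, 35.2 CPM at 500 to 1000 µm and 26.6 CPM at 1000 to 2000 µm. The ratio to the mirrored band passed from -1.61 [-2.20 to -1.10] in the first to -0.18 [-0.55 to 0.17] in the third. Arc had a ratio of -0.86 [-1.09 to -0.63] in the first band and -1.64 [-1.89 to -1.41] in the third. In the fourth band, with 538 mirrored bins, both had intervals that included 0, Npas4 at -0.12 [-0.77 to 0.62] and Arc at -0.16 [-0.63 to 0.35]. Between the opposite cortices of the 2 sections, which are different animals, Npas4 had 34.5 CPM at 3 days and 38.2 CPM at 28 days and Fos 44.3 and 47.3 CPM, whereas Arc had 222 and 166 CPM.

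**Figure D4:**
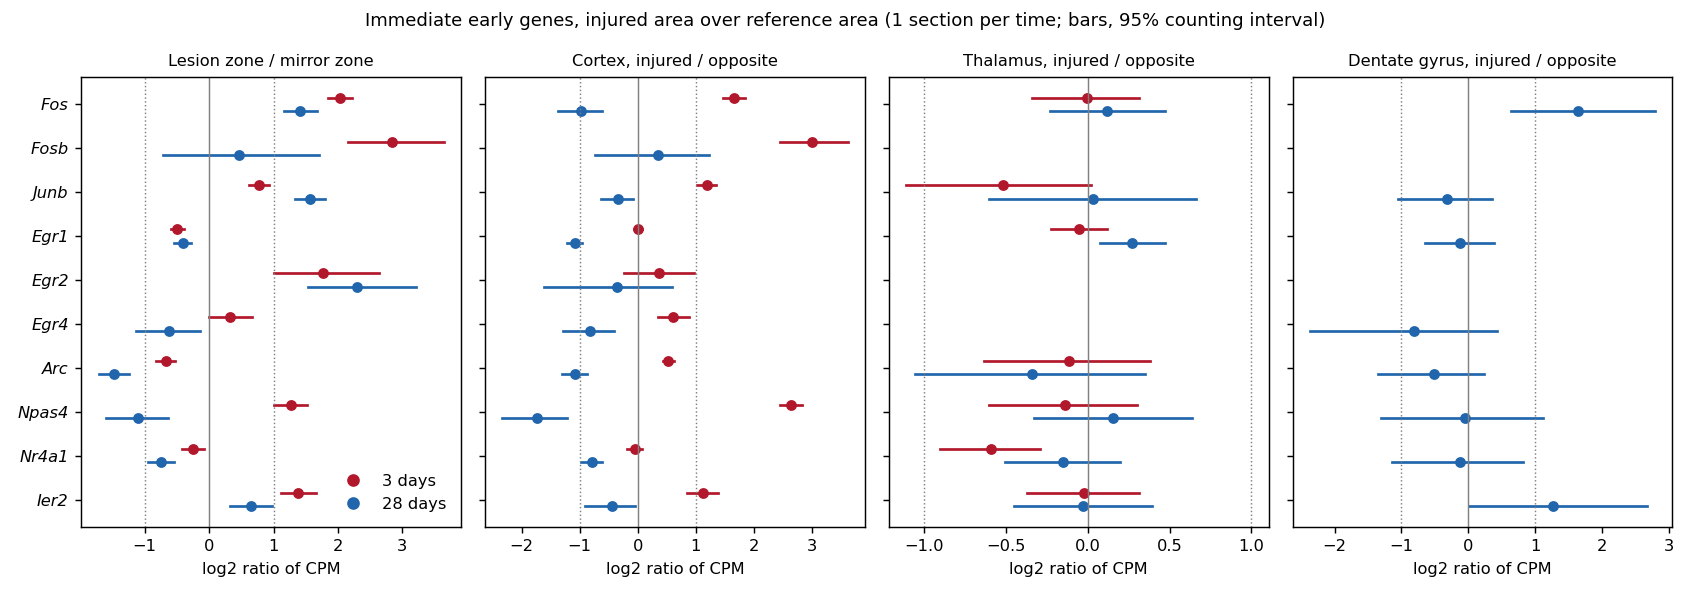
Log2 ratio of CPM, injured over reference area (horizontal axis), of each member in 4 comparisons at 3 days (red) and 28 days (blue), with 95% counting intervals. Dotted lines mark -1 and 1, and members with fewer than 20 UMIs over both areas have no point. In cortex, in mirrored columns, Npas4 is at 2.64 at 3 days and -1.73 at 28 days, and in thalamus all points lie between the dotted lines.

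In thalamus, 7 of the 10 members were measured in each section, and none was called. At 3 days Npas4 had 11.7 CPM (63 UMIs) on the injured and 12.9 CPM (128 UMIs) on the opposite side, a log2 ratio of -0.14 [-0.60 to 0.30], and Fos a ratio of -0.01 [-0.34 to 0.31]. At 28 days Npas4 had a ratio of 0.15 [-0.33 to 0.64] and Fos of 0.12 [-0.23 to 0.47]. The members with intervals off 0 were Nr4a1 at 3 days (-0.59 [-0.90 to -0.29]) and Egr1 at 28 days (0.27 [0.07 to 0.47]). In mirrored thalamic bins Nr4a1 had -0.30 [-0.68 to 0.07] and Egr1 0.25 [0.04 to 0.45]. Of all genes, 2.58% were called higher and 1.63% lower at 3 days. At 28 days 1.49% were called higher and 0.289% lower. Fosb, Egr2 and Egr4 had at most 7 UMIs on either side of the thalamus in either section.

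In hippocampus, the dentate gyrus, the entry of the hippocampal circuit, could be compared at 28 days only. There its 5 marker genes were raised on both sides, Dsp to 194 CPM on the injured and 239 CPM on the opposite side. Fos had 40.6 CPM (26 UMIs) on the injured and 12.7 CPM (12 UMIs) on the opposite side, a log2 ratio of 1.65 [0.64 to 2.80]. Ier2 had 23.4 CPM (15 UMIs) and 9.52 CPM (9 UMIs), a ratio of 1.27 [0.01 to 2.67] whose lower bound was close to 0. Neither call was stable: Fos had 0.76 with the line moved 12 bins towards the injured side and 0.73 without smoothing of the region scores, and Ier2 0.85 as UMIs per bin. Npas4 (-0.04 [-1.31 to 1.11]), Arc (-0.52 [-1.36 to 0.24]), Egr1 (-0.12 [-0.64 to 0.38]), Nr4a1 (-0.12 [-1.13 to 0.81]), Junb (-0.32 [-1.05 to 0.36]) and Egr4 (-0.82 [-2.37 to 0.43]) had intervals that included 0. Hence 2 of the 8 members measured were called higher, against 8% of 9883 genes, and 0 lower, against 1.92%. The neuronal list was at 5815 and 7023 CPM there, the astrocyte list at 4617 and 2398 CPM, and the microglia and macrophage list at 708 and 236 CPM, and their part was not tested. On the opposite side, the hippocampal patch had 11.6 CPM of Npas4 at 3 days and 19.6 CPM at 28 days, 76.1 and 81.7 CPM of Arc, and 34.5 and 12.6 CPM of Fos. This patch was mostly dentate gyrus and CA3, with 21 of its 192 tiles labelled CA1 at 3 days and 57 of 158 at 28 days. Of the CA1 markers, Wfs1 was lower in it than in the rest of the section (20.9 against 89.0 CPM at 3 days and 12.0 against 75.2 CPM at 28 days), and Spink8 was higher (42.6 against 1.87 CPM at 3 days). At 3 days the markers of the injured tissue labelled dentate gyrus were divided: Prox1 (303 against 59.2 CPM in the rest of the section), C1ql2 (250 against 14.5 CPM) and Tdo2 (1.99 against 0.636 CPM, 5 UMIs) were higher, and Dsp (1.59 against 2.52 CPM) and Plk5 (3.97 against 14.7 CPM) lower, and the members are not compared there.

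Other genes of the same response were taken from a list of 44 activity-regulated and immediate early genes outside the 10. In the lesion zone at 3 days, 16 of 44 were called higher and 5 lower, beside 17.5% and 8.57% of all genes, with a median of 0.48. Of those with at least 200 UMIs over both areas, the highest were Ccn1, a secreted matrix protein (207 against 16.1 CPM, log2 ratio 3.68 [3.42 to 3.96]), Atf3, a stress-induced factor (52.0 against 4.14 CPM, log2 ratio 3.63 [3.12 to 4.22]), and Zfp36, which promotes decay of cytokine transcripts (225 against 36.8 CPM, log2 ratio 2.61 [2.43 to 2.80]). The lowest of these were Nrn1, which encodes neuritin (64.4 against 384 CPM, log2 ratio -2.57 [-2.74 to -2.41]), Nr4a3 (6.96 against 39.7 CPM, log2 ratio -2.49 [-3.05 to -2.01]) and Nr4a2 (8.31 against 38.3 CPM, log2 ratio -2.19 [-2.70 to -1.74]), both relatives of Nr4a1. At 28 days in the zone 11 of the 43 measured were called higher and 7 lower, beside 16.5% and 8.16% of all genes. Among those with at least 200 UMIs, Atf3 was highest (53.8 against 2.00 CPM, log2 ratio 4.70 [4.03 to 5.57]), with Ccn1 and Zfp36 next, and Egr3 lowest (26.3 against 79.7 CPM, log2 ratio -1.60 [-1.84 to -1.37]), followed by Nptx2 and Homer1, 2 synaptic genes.

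In injured cortex at 3 days, 7 of 43 related genes were called higher and 0 lower, beside 7.56% and 0.818% of all genes, with a median of 0.19 against 0.87 for the members. With at least 200 UMIs, the highest were Zfp36 (73.9 against 12.3 CPM, log2 ratio 2.58 [2.23 to 2.95]), Gadd45g, a stress-response gene (59.0 against 12.5 CPM, log2 ratio 2.24 [1.88 to 2.62]), and Ptgs2, the inducible cyclooxygenase (36.7 against 9.73 CPM, log2 ratio 1.91 [1.49 to 2.36]). The lowest at that depth were Homer1, a postsynaptic scaffold (280 against 448 CPM, log2 ratio -0.67 [-0.77 to -0.58]), Per1 and Pcsk1. In cortex at 28 days 1 of 41 was called higher and 1 lower, beside 4.13% and 1.37% of all genes. Zfp36 was the highest of those with at least 200 UMIs (log2 ratio 0.87 [0.44 to 1.28]) and Inhba, an activin subunit, the lowest (10.1 against 21.1 CPM, log2 ratio -1.03 [-1.69 to -0.47]). In thalamus at 3 days 2 of 42 were called higher and 2 lower, beside 2.58% and 1.63% of all genes, the latter including Dusp5, a kinase phosphatase (7.81 against 17.1 CPM, log2 ratio -1.12 [-1.65 to -0.63]), and at 28 days 1 of 39 was called in each direction, beside 1.49% and 0.289%. In dentate gyrus at 28 days 2 of 33 were higher and 7 lower, beside 8% and 1.92% of all genes, the lowest with at least 200 UMIs being Plk2 (116 against 312 CPM, log2 ratio -1.43 [-1.82 to -1.06]), Bdnf, a neurotrophin (93.7 against 247 CPM, log2 ratio -1.39 [-1.83 to -0.98]), and Scg2, a granule protein (81.2 against 181 CPM, log2 ratio -1.15 [-1.63 to -0.70]).

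Genes with at least 2000 UMIs in a section, 9410 at 3 days and 8130 at 28 days, were ranked by how like the members they were in pattern. Among them the gene most like the members was Egr3, another zinc finger factor of the Egr family, in both sections, although in squares of 32 by 32 bins Ier5 led at 3 days and Gda at 28 days. The Spearman correlation of Egr3 with the mean rank of the 10 members was 0.79 over 501 squares of 16 by 16 bins at 3 days and 0.69 over 455 squares at 28 days. Ier5 (0.76), Ngef (0.74), Nrgn (0.73) and Ankrd33b (0.73) followed at 3 days, and Gda (0.68), Kcnv1 (0.66), Baiap2 (0.66) and Pld3 (0.65) at 28 days. The squares share the libraries and lie next to each other, and the mean rank itself had a correlation of 0.22 and 0.40 with depth, so the values describe the 2 sections. Among the members, Egr1 was most like the mean of the other 9 (0.84 at 3 days and 0.76 at 28 days) and Ier2 least like it (0.32 and 0.05).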

How the data were processed

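Spatial gene expression was profiled with Visium HD in 2 sections, 1 per time after injury. The authors ran Space Ranger (4.0.1 in the file headers, with mm10 named in the submitters' processing notes) and deposited raw counts of UMIs per gene and 16 µm bin, which were used as deposited. Bins under 100 UMIs were left out, 1.93% of those at 3 days and 2.15% of those at 28 days. Columns below 130 in the first section and below 240 in the second formed the injured side. The lesion zone was made of tiles of 4 by 4 bins whose share of UMIs from 6 myeloid genes, smoothed over 5 by 5 tiles, exceeded the 99th percentile seen on the uninjured side. Regions were tiles with the highest marker score of all lists and a score above 0.3, compared only within columns that have a mirror column on the array. UMIs were summed per area and scaled to CPM, and log2 ratios used a pseudocount of 0.5 UMI.

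Ratio intervals were exact conditional binomial and CPM intervals exact Poisson, both at 95% and covering counting error only. With n = 1 per group no test was run. The interval code was tested on simulated data. All 10 members were named, as were the 3 highest and 3 lowest of the related genes with at least 200 UMIs over both areas. The 5 genes most like the members, among those with at least 2000 UMIs in a section, were also named. The members and lists were chosen with earlier results of these data known. The layer lists, the hippocampal patch (score above 0.6, with a habenula list as competitor) and the alternatives with mirrored bins only and with all labelled bins were chosen after seeing the data. Of the planned comparisons, 3 were set aside after their values had been seen, because markers that were high in the opposite tiles were below the rest of the section in the injured ones: Dsp for dentate gyrus at 3 days (4 UMIs), with Plk5 (10 UMIs), and Spink8 for CA1 at both times (4 and 11 UMIs). Other markers, among them Prox1 and C1ql2 for dentate gyrus and Fibcd1, Wfs1 and Pou3f1 for CA1, were raised there. The member medians of these 3 comparisons were -1.16 for dentate gyrus, and 0.33 and 0.06 for CA1 at 3 and 28 days. No interval was computed for these medians. Python 3.11.15, numpy 2.4.6, scipy 1.17.1, pandas 2.3.3 and matplotlib 3.10.9 were used.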

Additional observations from a re-analysis of the deposited data

Results flagged for a closer look

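For 7 ratios the section at 3 days lay on one side of 0 and that at 28 days on the other, with both intervals off 0. The share of all genes that did so was not counted. In cortex, 2779 of 12712 genes had intervals above 0 at 3 days, and 1190 of 12866 had intervals below 0 at 28 days. In the lesion zone these counts were 5454 of 13570 and 4564 of 13619. Such counts do not give the share of genes that did both. With 1 section at each time the difference between times was not tested, and time cannot be told apart from the animal, the library or the position of the section. In cortex, the log2 ratio at 28 days minus that at 3 days was -4.36 for Npas4, -2.63 for Fos, -1.62 for Arc, -1.57 for Ier2, -1.53 for Junb and -1.44 for Egr4. The cortical value at 28 days rests on 2298 of 9428 injured cortex bins, and over all labelled cortex the ratios of Npas4 were -0.71 at 28 days and 2.97 at 3 days. In the lesion zone the difference was -2.37 for Npas4. The ratio of Ier2 in cortex at 28 days changed direction when the line between the sides was moved, and that of Npas4 in the zone at 28 days when scaled to pan-neuronal UMIs.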

How the results depend on the processing

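Of 653 single-member ratios recomputed under other settings, 518 stayed within the counting interval of the reported value, 127 left it on the same side of 0 or from an interval that included 0, and 8 changed direction from an interval off 0. Another 81, counted in the first or second number, changed sign from an interval that included 0. Scaled to pan-neuronal UMIs, the lesion zone ratios of Arc (1.02), Egr1 (1.20) and Nr4a1 (1.45) at 3 days and of Egr1 (0.94), Egr4 (0.72), Npas4 (0.25) and Nr4a1 (0.61) at 28 days changed direction. With the line moved 12 bins towards the opposite side, Ier2 in cortex at 28 days was at 0.10. The zone medians became 2.71 at 3 days and 1.38 at 28 days with pan-neuronal scaling, 0.40 at 3 days as UMIs per bin, and -1.03 at 28 days against the whole opposite side. The number of members called lower in cortex at 28 days ran from 1 to 6, against 3. The highest number came with UMIs per bin. The lowest came with pan-neuronal scaling, with mirrored bins only and without smoothing of the region scores. The share of all genes called lower under these settings was not counted. The thalamus median at 3 days was 0.30 as UMIs per bin. The scaling divides by a list that differed between zone and mirror zone, which shifts the ratio of every gene in a comparison by the same amount. UMIs per bin likewise shift the ratio of every gene in a comparison by the same amount, set by the mean depth of the areas compared. In the zone at 3 days this depth was 607 UMIs per bin, against 937 in the mirror zone. The cause of the changes under the remaining settings was not tested. No paired analysis was possible because each group held 1 section. Fosb and Egr2 had the fewest UMIs, so that their ratios have the widest intervals in most areas.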

Other observations

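The highest squares of 16 by 16 bins for Npas4 and Fosb at 28 days lay far from the lesion, in tissue labelled hypothalamus on the opposite side, 1.41 mm from the line. That square, singled out after its values were seen, had 509 CPM of Npas4 (106 UMIs) and 183 CPM of Fosb (38 UMIs), against medians over all squares of 19.2 and 0 CPM. The highest square for Fos in that section lay beside it, with 555 CPM (84 UMIs) against a median of 33.0 CPM.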
